A study of Bos taurus with 6 samples.

Results

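The ephrin, semaphorin, Slit and netrin guidance genes were followed in ACADSB-/- and WT bovine mammary epithelial cells (bMECs). They were chosen by name, and with earlier results of these data known. They are the ephrins (EFN), Eph receptors (EPH), semaphorins of classes 3 to 7 (SEMA), plexins (PLXN), neuropilins (NRP), Slits (SLIT), Robos (ROBO), netrins (NTN) and UNC5 receptors listed in the table of raw read counts. The names matched 46 of its 15693 genes, 26 encoding ligands and 20 encoding receptors. Total RNA was sequenced in 6 libraries, 3 of ACADSB-/- bMECs and 3 of WT bMECs. Both groups came from mammary tissue of a Chinese Holstein dairy cow in lactation. For ACADSB-/-, cells were transfected with the PX458 plasmid, which carries Cas9, GFP and a guide RNA against exon 5 of ACADSB, and a GFP-positive cell was sorted and expanded. The WT cells, which the labels describe only as bMECs, are called negative control cells in the methods. The product of ACADSB is a mitochondrial acyl-CoA dehydrogenase, an enzyme of isoleucine breakdown.

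The methods describe expansion from a sorted cell and the design line of the series can be read as several knock-out lines, so an effect of the deletion and a difference between founder cells cannot be told apart. The libraries are not stated to come from separate cultures, so each p-value reflects the spread between libraries, which may be technical. The edited gene itself was weakly expressed, with 9, 7 and 15 counts in the ACADSB-/- libraries, against 38, 34 and 20 in the WT libraries, a log2 fold change of −1.60 (SE 0.459, adjusted p = 0.00357 by edgeR's quasi-likelihood test). The libraries held 30550275 to 34983965 counts, and the guidance genes took 0.286% to 0.301% of them in ACADSB-/- bMECs and 0.288% to 0.304% in WT bMECs. Epithelial keratins were abundant, the highest of the luminal and basal marker lists being KRT18 and KRT5, with KRT18 at 1621 FPKM and KRT5 at 2138 FPKM in ACADSB-/- bMECs, against 2329 and 1869 FPKM in WT bMECs (FPKM, fragments scaled by the length of the gene model and the library total). The caseins CSN2, CSN3 and CSN1S1 and the luminal factors ESR1, PGR and ELF5 were listed at 0 in every library. Of the same luminal list, FOXA1 was at 4.21 FPKM in ACADSB-/- and 2.78 FPKM in WT. MUC1 was at 3.57 FPKM in ACADSB-/- and 3.61 FPKM in WT. The cells thus carried epithelial markers without mRNA of these caseins.

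Guidance molecules were first studied in growing axons and also act between epithelial cells. Ephrins are held on the cell surface and bind Eph receptors, a family of receptor tyrosine kinases, on the neighbouring cell, and signals run into both cells. Semaphorins act through plexins, and the secreted class 3 semaphorins use neuropilins as co-receptors. Slits bind Robos, and netrins bind DCC, neogenin and UNC5 receptors. In the mouse mammary gland, SLIT2 with ROBO1 and netrin-1 with neogenin are known for holding the duct's cell layers together, and EPHA2 for branching of the ducts.

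Guidance genes were expressed from nearly nothing up to above 100 FPKM. By level per length, the Eph receptors summed to 245 ± 6.22 FPKM in ACADSB-/- bMECs and 263 ± 8.89 FPKM in WT bMECs, the ephrins to 176 ± 0.922 and 189 ± 2.65 FPKM, and the plexins to 104 ± 3.34 and 114 ± 4.17 FPKM (SD, n = 3 each). The 16 semaphorins summed to 252 ± 8.57 FPKM in ACADSB-/- bMECs and 224 ± 4.69 FPKM in WT bMECs. The neuropilins, the Slits, the Robos and UNC5B each summed to under 5 FPKM in either group. The cells thus held much Eph receptor, ephrin, semaphorin and plexin mRNA and little neuropilin, Slit and Robo mRNA.

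**Figure D1:**
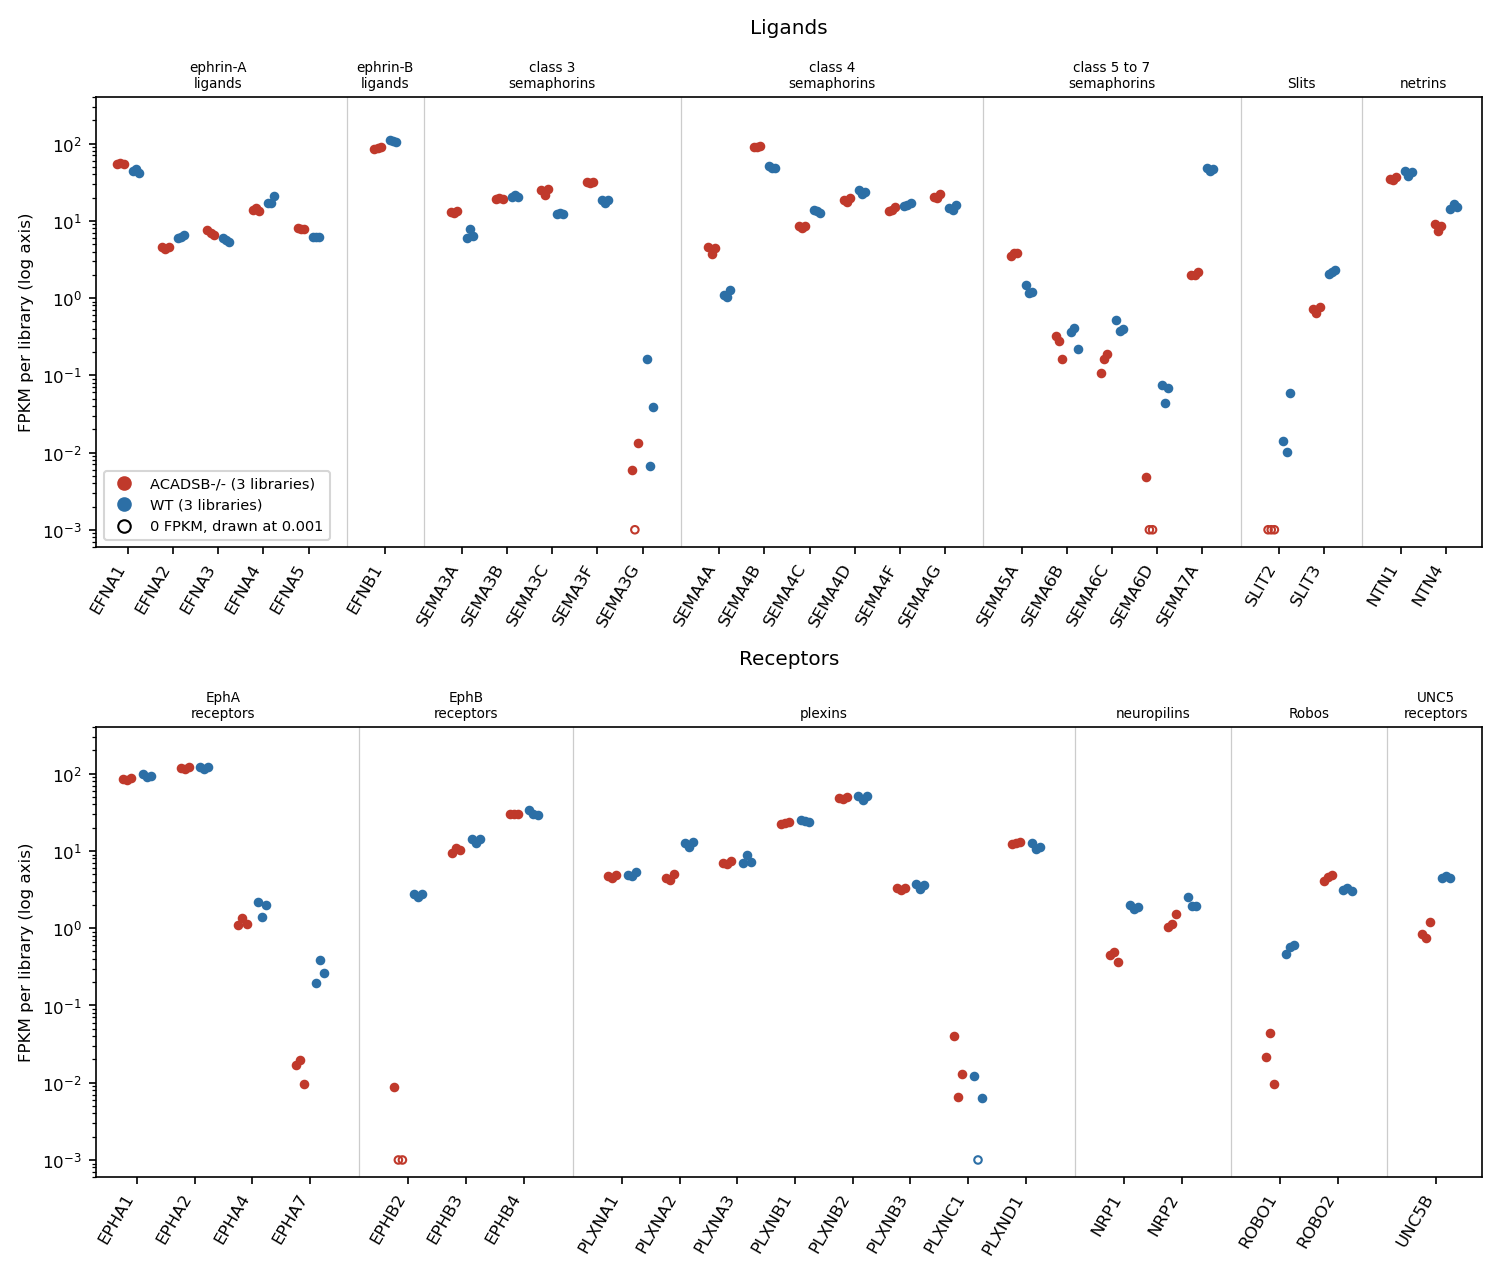
FPKM of the 46 guidance genes (log axis), ligands above and receptors below, with ACADSB-/- libraries in red at left and WT libraries in blue at right of each gene, and open circles for libraries at 0. SEMA7A, EPHB2, ROBO1 and EPHA7 stand far lower in ACADSB-/-, while EPHA2 lies at 118 FPKM in ACADSB-/- and 119 FPKM in WT.

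Of the 46 genes, 42 passed the filter on low counts and were tested. Past 2-fold and an adjusted p under 0.05 by edgeR, 9 were lower in ACADSB-/- (SEMA7A, EPHB2, ROBO1, EPHA7, UNC5B, NRP1, SLIT3, SEMA6C and PLXNA2) and 2 were higher (SEMA4A and SEMA5A). Over all 13720 tested genes, 4.92% were lower and 5.3% higher by the same rule, so that 10.2% were called in either direction. The share among the tested guidance genes was 21.4% lower and 4.76% higher. EPHB2, EPHA7 and ROBO1 reached the filter's minimum of 10 counts in WT libraries only, so these 3 could enter only by being lower in ACADSB-/-. For this reason, and because the genes were chosen with earlier results known, the shares are a description.

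With no fold threshold, 22 of the 42 were lower and 10 higher in ACADSB-/- at an adjusted p under 0.05, against 28.6% and 29.7% of all tested genes (58.2% in either direction). Among ligands, 11 were lower, 9 higher and 3 did not pass. Among receptors, 11 were lower, only ROBO2 was higher and 7 did not pass. The median log2 fold change of the tested guidance genes was −0.20, and that of all tested genes was 0.00. For 34 of the 42 the groups were separate in CPM, against 63.6% of all tested genes.

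**Figure D2:**
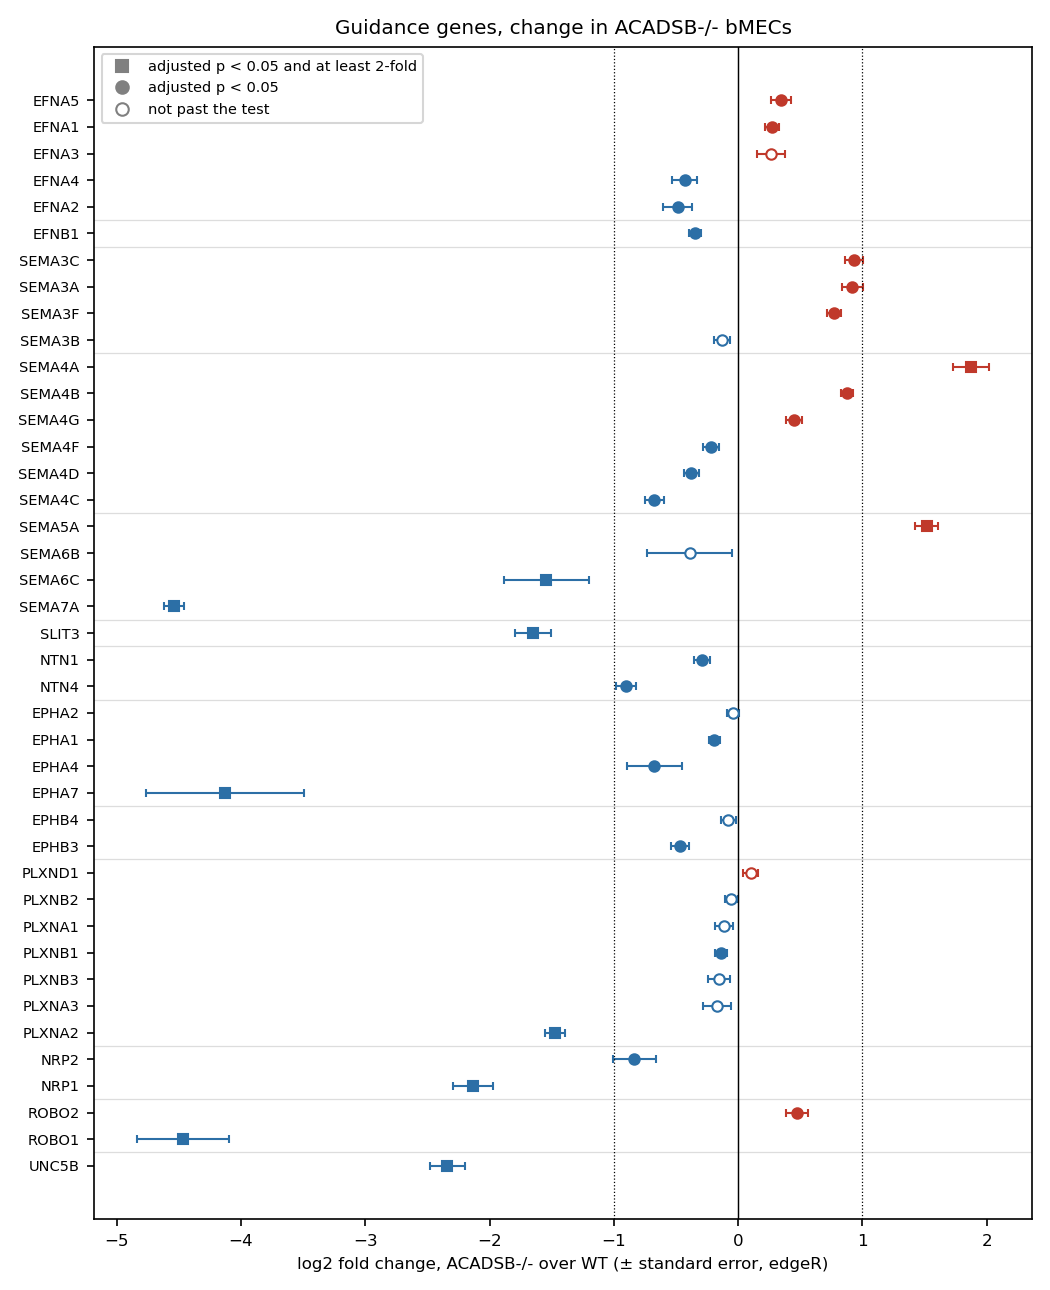
Log2 fold change of ACADSB-/- over WT with its standard error for 41 tested guidance genes, by family, where squares passed an adjusted p of 0.05 and 2-fold, filled circles the adjusted p alone and open circles neither. EPHB2 is left out because it had 1 count in all ACADSB-/- libraries together, and the points run from −4.54 for SEMA7A to 1.88 for SEMA4A.

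SEMA7A, a semaphorin anchored to the membrane by a lipid and known to signal through PLXNC1 and integrin β1, had the smallest adjusted p of the guidance genes. It had 174, 150 and 169 counts in the ACADSB-/- libraries, against 4000, 3404 and 3674 in the WT libraries, a 23.2-fold lower level (log2 fold change −4.54, SE 0.0791, adjusted p = 3.08e-28 by edgeR). The 3 ACADSB-/- libraries lay close together and far under all WT libraries. Per length, SEMA7A was at 2.05 ± 0.119 FPKM in ACADSB-/- and 46.5 ± 1.87 FPKM in WT (SD, n = 3 each). In order of level it was the 12th of the 16 semaphorins in ACADSB-/- and the 2nd in WT, where its libraries overlapped those of SEMA4B. It took 0.797% to 0.836% of the summed semaphorin FPKM in ACADSB-/- libraries, against 20.4% to 21.2% in WT libraries. The files place the gene on chromosome 21 from 34750434 to 34776837, on a genome build that none of the sources used here names.

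SEMA4B, a transmembrane semaphorin, was the most abundant semaphorin in ACADSB-/- bMECs. It rose to 91.9 ± 1.96 FPKM in ACADSB-/-, against 48.8 ± 1.40 FPKM in WT (SD, n = 3 each; log2 fold change 0.88, SE 0.0476, adjusted p = 6.83e-16 by edgeR). Its share of the semaphorin sum was 35.9% to 37.3% in ACADSB-/- libraries and 21.5% to 22.1% in WT libraries. SEMA7A fell by 44.5 FPKM and SEMA4B rose by 43.1 FPKM on the linear scale, and the summed semaphorin level in ACADSB-/- was 1.13 times that in WT. Other semaphorins moved too. The class 3 sum was 87.9 FPKM in ACADSB-/- and 57.7 FPKM in WT, while SEMA4C, SEMA4D and SEMA4F were lower in ACADSB-/-. Whether the changes of SEMA7A and SEMA4B are linked was not tested.

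Every class 4 semaphorin passed the adjusted p, 3 in each direction. SEMA4A, known in mouse and human as a ligand of plexins on immune and endothelial cells, had 488, 342 and 416 counts in ACADSB-/- libraries, against 110, 95 and 121 in WT libraries. It was 3.67-fold higher in ACADSB-/- (log2 fold change 1.88, SE 0.145, adjusted p = 2.65e-12), with no overlap. SEMA4G was also higher (0.45 on the log2 scale). SEMA4C, a ligand of PLXNB2, was lower (−0.67, 8.40 ± 0.355 FPKM in ACADSB-/- and 13.1 ± 0.559 FPKM in WT), as were SEMA4D, the ligand of PLXNB1 (−0.38), and SEMA4F (−0.22). The SEMA4F call was narrow, with an adjusted p of 0.00440 on counts and 0.0502 by limma on log2(FPKM + 1). Its change of 1.16-fold was itself under the 1.2-fold threshold against which it was also tested (adjusted p = 0.766).

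The secreted class 3 semaphorins were higher or did not pass the test. SEMA3C had 2188, 1665 and 2035 counts in ACADSB-/- libraries, against 1029, 964 and 972 in WT libraries (log2 fold change 0.94, SE 0.0721, adjusted p = 2.66e-12). SEMA3A, which in axons causes growth cones to collapse through NRP1, had 1460, 1260 and 1339 counts in ACADSB-/- libraries, against 646, 775 and 645 in WT libraries (0.92, SE 0.0860). SEMA3F, a ligand that prefers NRP2, was at 31.6 ± 0.839 FPKM in ACADSB-/- and 18.1 ± 0.934 FPKM in WT (0.77, SE 0.0576). The 3 genes were 1.91-fold, 1.89-fold and 1.70-fold higher in ACADSB-/-, with no overlap between the groups. SEMA3B did not pass (−0.13, adjusted p = 0.0831). SEMA3G was too low to test, with 1, 0 and 2 counts in ACADSB-/- libraries, against 26, 1 and 6 in WT libraries, which overlap.

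Of classes 5 to 7, SEMA5A, a transmembrane semaphorin with thrombospondin repeats that binds PLXNB3, rose. It had 1308, 1231 and 1269 counts in ACADSB-/- libraries, against 514, 375 and 400 in WT libraries, 2.86-fold higher in ACADSB-/- (log2 fold change 1.52, SE 0.0920, adjusted p = 1.05e-14). SEMA6C, a transmembrane semaphorin, had 15, 20 and 24 counts in ACADSB-/- libraries, against 70, 47 and 51 in WT libraries (−1.54, SE 0.345, adjusted p = 0.00033). The separation held for each, although the SEMA6C counts were few. SEMA6D, in the same class, was below the filter, with 1, 0 and 0 counts in ACADSB-/- libraries, against 15, 8 and 13 in WT libraries, which makes it 37.3-fold lower in ACADSB-/- with an exact 95% interval of 6.28 to 1513 for counting error. SEMA6B had 47, 36 and 21 counts in ACADSB-/- libraries, against 50, 52 and 29 in WT libraries, which overlapped (adjusted p = 0.341).

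**Figure D3:**
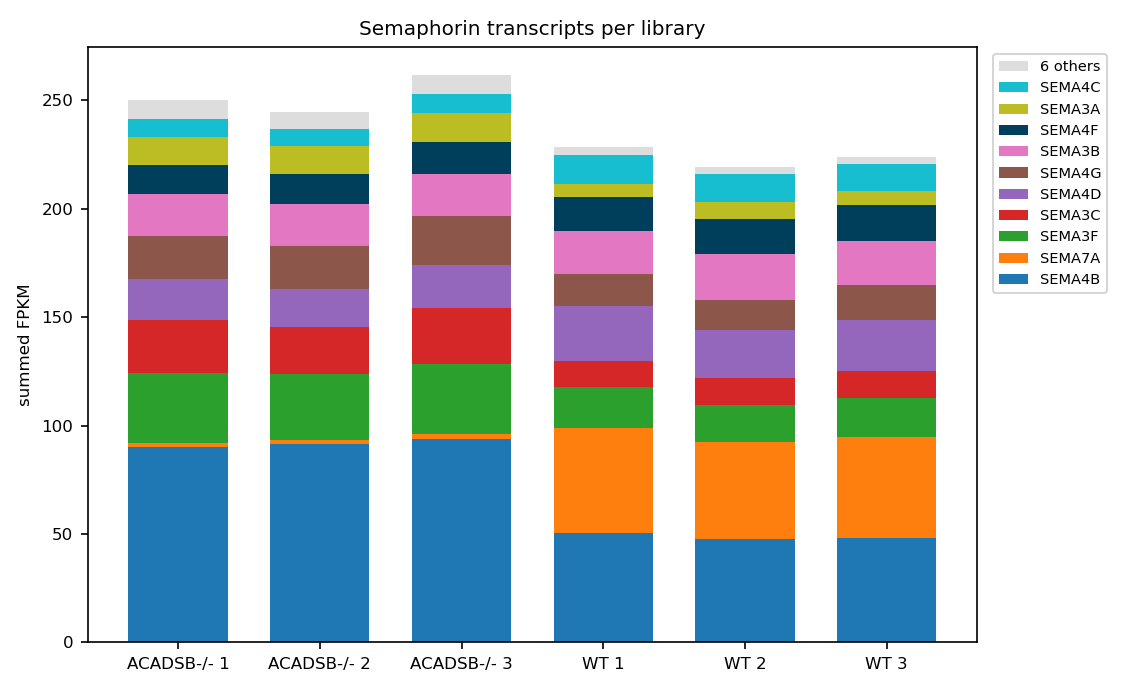
Summed FPKM of the 16 semaphorins in each library, stacked by gene, with the 3 ACADSB-/- libraries at left and the 3 WT libraries at right. The bars reach 245 to 262 FPKM in ACADSB-/- and 219 to 229 FPKM in WT, and the SEMA7A segment is thin in every ACADSB-/- bar.

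Of the 7 plexins tested, 5 did not pass the test. PLXNB2, the most abundant plexin, was at 48.8 ± 1.32 FPKM in ACADSB-/- and 49.4 ± 2.73 FPKM in WT (log2 fold change −0.05, SE 0.0501, adjusted p = 0.369 by edgeR). PLXNA1, PLXNA3, PLXNB3 and PLXND1 also did not pass, with log2 fold changes of −0.17 to 0.10. PLXNB1, the receptor of SEMA4D, was slightly lower (−0.14, adjusted p = 0.02). This call was lost without ACADSB-/- library 1 (adjusted p = 0.127) or WT library 1 (adjusted p = 0.0935). It held in 13 of 19 settings, the main fit included.

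PLXNA2 was the only plexin past 2-fold. This receptor, which binds class 6 semaphorins directly and class 3 semaphorins together with neuropilins, had 700, 586 and 710 counts in ACADSB-/- libraries, against 1929, 1551 and 1879 in WT libraries. It was 2.78-fold lower in ACADSB-/- (log2 fold change −1.47, SE 0.0816, adjusted p = 1.17e-15), with no overlap. In order of level it was the 6th of 8 plexins in ACADSB-/-, where it overlapped PLXNA1, and the 3rd in WT, where it overlapped PLXND1. The files place it on chromosome 16 from 77300626 to 77505230. PLXNC1, the plexin of SEMA7A, was nearly silent, with 7, 1 and 2 counts in ACADSB-/- libraries, against 2, 0 and 1 in WT libraries.

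Both neuropilins were lower, while 3 of the class 3 semaphorins that use them were higher. NRP1, also a co-receptor of vascular endothelial growth factor, had 89, 86 and 64 counts in ACADSB-/- libraries, against 371, 305 and 339 in WT libraries. It was 4.39-fold lower in ACADSB-/- (log2 fold change −2.13, SE 0.158, adjusted p = 1.11e-12). NRP2 had 112, 109 and 148 counts in ACADSB-/- libraries, against 260, 185 and 195 in WT libraries (−0.84, SE 0.172, adjusted p = 0.00012). For each neuropilin every ACADSB-/- library lay under every WT library in CPM. Their summed level was 1.67 ± 0.211 FPKM in ACADSB-/- and 4.01 ± 0.417 FPKM in WT, against class 3 semaphorin sums of 87.9 ± 3.18 and 57.7 ± 0.829 FPKM (SD, n = 3 each). Fewer cells with a transcript and less of it per cell cannot be told apart in these bulk libraries.

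EPHA2 and EPHA1 made up most of the Eph receptor mRNA. EPHA2, a receptor tyrosine kinase abundant in epithelia, was at 118 ± 3.95 FPKM in ACADSB-/- and 119 ± 2.77 FPKM in WT (log2 fold change −0.04, SE 0.0463, adjusted p = 0.466). EPHA1 was at 85.1 ± 2.15 FPKM in ACADSB-/- and 94.8 ± 3.27 FPKM in WT (−0.19, adjusted p = 0.00106). EPHB4, the main EphB receptor here, did not pass (−0.08, adjusted p = 0.257), and EPHB3 was lower (−0.46, SE 0.0736, adjusted p = 3.2e-06). The 4 Eph receptors above 5 FPKM thus differed by less than 2-fold between the groups.

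Among the rarer Eph receptors, EPHB2 and EPHA7 fell by more than 2-fold and EPHA4 by less. EPHB2, a receptor of ephrin-B ligands, had 1, 0 and 0 counts in ACADSB-/- libraries, against 301, 249 and 289 in WT libraries (adjusted p = 1.71e-18 by edgeR). The ratio was 869-fold lower in ACADSB-/-, with an exact 95% interval of 156 to 34365 for counting error alone. EPHB2 was at 2.70 ± 0.170 FPKM in WT, the 5th of 7 Eph receptors there and the last in ACADSB-/-. EPHA7, a receptor of ephrin-A ligands, had 2, 2 and 1 counts in ACADSB-/- libraries, against 22, 40 and 28 in WT libraries (log2 fold change −4.13, SE 0.637, adjusted p = 2.17e-06). Neither gene's libraries overlapped between the groups, and EPHA7 was low in both. EPHA4 had 71, 75 and 65 counts in ACADSB-/- libraries, against 133, 77 and 117 in WT libraries (−0.67, SE 0.221, adjusted p = 0.00997), and without WT library 1 its adjusted p was 0.0603.

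EPHB2 lies on the minus strand of chromosome 2 from 130922190 to 131063828 in the files. LOC100336526, an uncharacterised gene on the opposite strand inside this interval, had 1, 0 and 0 counts in ACADSB-/- libraries, against 80, 73 and 79 in WT libraries. No source used here states whether the counting used the strand, so reads of the gene and its antisense partner cannot be told apart. The same limit holds for PLXNA2, SLIT3, ROBO1, SEMA5A, NRP2, NTN1, PLXNB1, SLIT2 and SEMA6D, which also overlap genes on the opposite strand. EPHA7 lies on chromosome 9 from 57914546 to 58121954, and no tested gene lay within 500 kb of it.

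Ephrins changed by less than 2-fold in every case. EFNB1, the transmembrane ligand of EphB receptors, was the most abundant ephrin and was lower, at 87.4 ± 1.85 FPKM in ACADSB-/- and 109 ± 3.58 FPKM in WT (log2 fold change −0.35, SE 0.0474, adjusted p = 2.64e-07). EFNA1, a main ligand of EPHA2, was higher, at 54.8 ± 1.16 FPKM in ACADSB-/- and 44.3 ± 2.62 FPKM in WT (0.27, adjusted p = 0.000202). Of the other ephrin-A ligands, EFNA5 was higher (0.35), and EFNA2 (−0.49) and EFNA4 (−0.43) were lower. EFNA2 shares its strand and part of its interval with MIDN, so their reads may be shared. EFNA3 missed the threshold (0.26, adjusted p = 0.05003), though its libraries did not overlap between the groups.

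Robo receptors moved in opposite directions. ROBO1, a Slit receptor, had 5, 9 and 2 counts in ACADSB-/- libraries, against 103, 118 and 128 in WT libraries. It was 22.1-fold lower in ACADSB-/- (log2 fold change −4.47, SE 0.371, adjusted p = 1.44e-11). ROBO2, its neighbour on chromosome 1 in the files, was the more abundant Robo in each group and was higher, with 834, 820 and 879 counts in ACADSB-/- libraries against 612, 595 and 561 in WT libraries (0.47, SE 0.0895, adjusted p = 4.37e-05). The groups overlapped for neither gene. ROBO2 made up 99.4% of the summed Robo level in ACADSB-/- and 85.3% in WT. ROBO1 spans 25684008 to 26856964 and overlaps uncharacterised genes on each strand.

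Slit ligands were weakly expressed, and the tested member was lower. SLIT3 had 120, 94 and 112 counts in ACADSB-/- libraries, against 323, 316 and 348 in WT libraries, 3.14-fold lower in ACADSB-/- (log2 fold change −1.65, SE 0.146, adjusted p = 6.11e-11). Its level was 0.706 ± 0.0571 FPKM in ACADSB-/- and 2.17 ± 0.129 FPKM in WT. SLIT2, under the filter, had no count in any ACADSB-/- library, against 3, 2 and 12 in the WT libraries, so that 12 of its 17 counts came from WT library 3, and no fold is given. The microRNAs MIR218-1 and MIR218-2 lie inside the SLIT2 and SLIT3 intervals of the files and were not examined.

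UNC5B, a netrin receptor known in vessels, was the sole UNC5 receptor in the count table. It had 111, 87 and 143 counts in ACADSB-/- libraries, against 567, 552 and 549 in WT libraries, 5.06-fold lower in ACADSB-/- (log2 fold change −2.34, SE 0.141, adjusted p = 9.67e-15). Its ligand NTN1, netrin-1, was at 35.1 ± 1.32 FPKM in ACADSB-/- and 41.8 ± 3.13 FPKM in WT (−0.29, adjusted p = 0.000268). NTN4, a netrin of basement membranes that binds laminin, had 1141, 806 and 947 counts in ACADSB-/- libraries, against 1680, 1820 and 1695 in WT libraries (−0.90, SE 0.0790, adjusted p = 5.02e-11). All 3 genes were lower in ACADSB-/-, without overlap. NTN1, EPHA4 and PLXNA3 have short gene models in the files (1812, 1826 and 1746 bases), on which their FPKM levels depend.

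**Figure D4:**
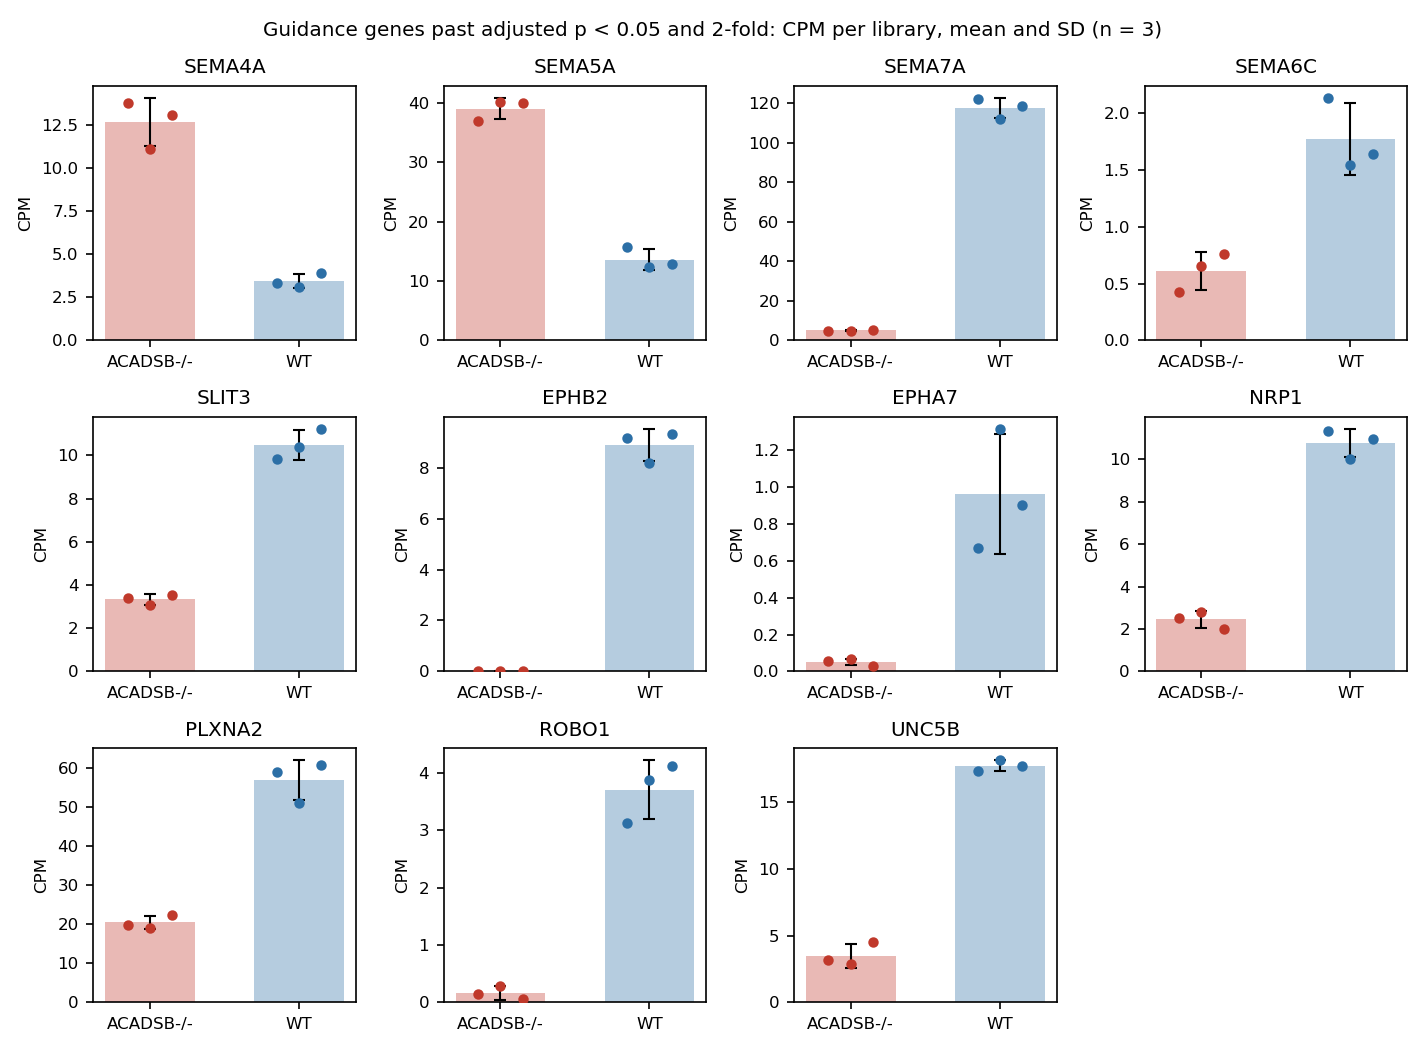
CPM (counts scaled by TMM library totals) of the 11 guidance genes past an adjusted p of 0.05 and 2-fold, with points for libraries, bars for means and whiskers for SD (n = 3), ACADSB-/- at left and WT at right. SEMA4A and SEMA5A are higher in ACADSB-/-, the other 9 are lower, and in no panel do the groups overlap.

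The 11 genes past 2-fold were mostly weakly expressed. Among tested genes with a mean under 5 FPKM over all libraries, 9 of 15 guidance genes were called (EPHA7, EPHB2, NRP1, ROBO1, SEMA4A, SEMA5A, SEMA6C, SLIT3 and UNC5B), against 20.2% of all such genes. Between 5 and 20 FPKM, PLXNA2 was the only call among 15, against 5.56%, and at 20 FPKM or more SEMA7A was the only call among 12, against 3.72%. These ranges of level were set after the values had been seen. Of the 9 calls under 5 FPKM, EPHA7, EPHB2 and ROBO1 could enter only by being lower in ACADSB-/-, so this share too is a description. Leaving out each library in turn called 11 to 13 guidance genes, the original 11 each time, with SEMA6D, SEMA3C, NRP2 or SEMA3A added in some. On log2(FPKM + 1) values, a scale that shrinks the change of low genes, EPHA7, ROBO1, SEMA6C and SLIT3 were under 2-fold, and 5 guidance genes were called lower in place of 9.

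Guidance names outside the count table were close to silent. The FPKM table holds 68 names that fit the same pattern, and 22 of them are not in the count table. Of these, 9, among them SLIT1, UNC5A, UNC5C and EPHB1, had no read in any library. The other 13 had at most 6 reads in a library by the FPKM values, and EFNB2, the ephrin-B ligand known as a partner of EPHB4, had 0, 0 and 1 reads in ACADSB-/- libraries, against 0, 6 and 1 in WT libraries. ROBO3 had 1, 0 and 0 reads in ACADSB-/- libraries, against 4, 1 and 4 in WT libraries. At this depth no difference could be tested for them.

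Partners of the guidance genes were taken from 4 textbook lists of 100 genes, of which 75 were tested. At an adjusted p under 0.05, 25 were higher (33.3%) and 31 lower (41.3%) in ACADSB-/-, beside the 29.7% and 28.6% of all tested genes, and the median log2 fold change was −0.10. At 2-fold, 4 were called (5.33%, against 10.2% of all tested genes). VAV3, an exchange factor for small GTPases that binds active Eph receptors, had 38, 42 and 35 counts in ACADSB-/- libraries, against 2, 1 and 5 in WT libraries (log2 fold change 3.74). Its relative VAV2 was lower, at 11.7 ± 0.413 FPKM in ACADSB-/- and 31.7 ± 0.754 FPKM in WT (−1.47, adjusted p = 7.76e-20). NGEF, the exchange factor ephexin downstream of EPHA4, had 46, 54 and 31 counts in ACADSB-/- libraries, against 7, 2 and 11 in WT libraries (2.64). CXCR4, a chemokine receptor whose signal Slits dampen in white blood cells, had 6, 10 and 0 counts in ACADSB-/- libraries, against 26, 30 and 22 in WT libraries (−2.31). VAV3 reached the filter's minimum of 10 counts in ACADSB-/- libraries only, so it could enter only by being higher there. NGEF and CXCR4 also passed the filter through the group where each was higher.

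By list, the Eph partners had 12 higher and 10 lower of 26 tested, the semaphorin partners 5 and 9 of 22, the netrin partners 2 and 8 of 13, and the Slit partners 6 and 4 of 14. ITGB1, the integrin chain through which SEMA7A signals, was higher (0.36, 455 ± 33.6 FPKM in ACADSB-/- and 346 ± 13.4 FPKM in WT). The netrin partner NEO1, neogenin, was lower (−0.37), as was FLRT2, an UNC5 ligand (−0.69, 15.4 ± 0.720 FPKM in ACADSB-/- and 24.3 ± 0.529 FPKM in WT). SDC1, a heparan sulfate proteoglycan of the kind Slits bind, was lower (−0.77), and PAK1, a kinase downstream of Rac, was higher (0.73). VEGFA, the growth factor that NRP1 binds, was slightly lower (−0.29). The GTPases RAC1 (adjusted p = 0.702), RHOA (adjusted p = 0.962) and CDC42 (adjusted p = 0.967) did not pass.

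Some epithelial and other cell type markers also passed the adjusted p of 0.05, in both directions. Passing was common in these data, with a rate of 58.2% over the whole tested set, either direction counted. The numbers of markers that passed, here and for the other cell types, are therefore a description. Of 10 luminal markers tested, 5 were higher in ACADSB-/-, among them EPCAM (log2 fold change 0.60), CDH1 (0.42) and KRT7 (0.40), and KRT18 (−0.56) and KRT8 (−0.19) were lower. Of 7 basal markers tested, 4 were higher, among them CAV1 (0.94) and KRT5 (0.16), and KRT14 (−0.92) and KRT17 were lower. KRT17 was the only epithelial marker past 2-fold, with 432, 416 and 378 counts in ACADSB-/- libraries, against 3208, 3170 and 3005 in WT libraries (−2.99).

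Endothelial markers were low in both groups, and 4 of 11 were tested. PECAM1 had 1, 1 and 0 counts in ACADSB-/- libraries, against 30, 42 and 52 in WT libraries, so it could enter only by being lower in ACADSB-/-. ERG was lower (log2 fold change −2.04, 0.765 FPKM in ACADSB-/- and 3.08 FPKM in WT) and carried most of the summed level in WT, while VWF was higher, with 191, 102 and 146 counts in ACADSB-/- libraries, against 62, 77 and 55 in WT libraries (1.11). TEK did not pass, and EMCN, under the filter, had 0, 1 and 0 counts in ACADSB-/- libraries, against 9, 12 and 13 in WT libraries. The sum of the list was 1.10 to 1.55 FPKM in ACADSB-/- libraries and 4.07 to 4.10 FPKM in WT libraries, and the defining genes CDH5, CLDN5, ESAM and FLT1 were listed at 0 in every library.

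Of 12 markers of neurons and glia, 4 were tested, and TUBB3 (−0.68) and S100B (−0.37) were lower and MAP2 (0.90) higher. SNAP25, under the filter, had no count in ACADSB-/- libraries, against 24, 5 and 10 in WT libraries, and SYT1 and STMN2 were listed at 0. The sum, mostly TUBB3, was 119 to 126 FPKM in ACADSB-/- libraries and 182 to 186 FPKM in WT libraries. Fibroblast markers, of which 5 of 12 were tested, summed to 598 to 625 FPKM in ACADSB-/- libraries and 500 to 538 FPKM in WT libraries, nearly all of it DCN (0.21). COL3A1 was lower (−1.17), and COL1A1 (−0.70), PDGFRA (0.26) and VIM (−0.30) did not pass. The collagen gene COL1A2, under the filter, had no count in ACADSB-/- libraries, against 15, 12 and 5 in WT libraries. THY1, also under the filter, had 2, 1 and 3 counts in ACADSB-/- libraries, against 8, 1 and 3 in WT libraries, which overlapped. POSTN had 2, 0 and 2 counts in ACADSB-/- libraries, against 9, 20 and 22 in WT libraries, and FAP had 0, 1 and 0, against 9, 8 and 1. Immune markers summed to 23.9 to 26.4 FPKM in ACADSB-/- libraries and 27.0 to 29.7 FPKM in WT libraries. Most of this was AIF1, at 22.3 FPKM in ACADSB-/- and 26.7 FPKM in WT (−0.30). CD68 was higher (0.55), and PTPRC and MS4A1 were listed at 0. CSF1R was lower (−2.25), with 8, 8 and 2 counts in ACADSB-/- libraries, against 25, 32 and 27 in WT libraries. It reached the filter's minimum of 10 counts in WT libraries only, so it could enter only by being lower in ACADSB-/-. The part of such cells in the values of UNC5B, NRP1, ROBO1 or EPHB2 was not tested.

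The chromosome neighbours of the 11 called guidance genes were also read. The 46 genes lie on 21 chromosomes and the 11 on 9. In the coordinates of the files, SEMA4A (14817354 to 14837337) and SEMA6C (19900213 to 19913699) share chromosome 3, and SLIT3 (324176 to 1053254) and SEMA5A (63985945 to 64572339) share chromosome 20, far from each other. NRP1 lies on chromosome 13 from 19995811 to 20143413 and UNC5B on chromosome 28 from 27613378 to 27701715. Within 500 kb of the 11 lay 104 other tested genes, of which 6 were higher and 10 lower by 2-fold (15.4%, against 10.2% of all tested genes). Of those called lower, STRA6, ISLR2, ISLR, LOC104976195 and LOC100336526 reached the filter's minimum of 10 counts in WT libraries only. CD34 and LOC107133033, called higher, reached it in ACADSB-/- libraries only. Each of these could enter only by the direction in which it was called, so this share too is a description. NES and TSACC also passed the filter through the group where each was higher. Around SEMA7A, 5 of 20 neighbours were called. STRA6, a retinol transporter, had no count in ACADSB-/- libraries, against 265, 258 and 253 in WT libraries. ISLR2 had none in ACADSB-/- libraries, against 17, 18 and 28 in WT libraries, and ISLR had 1, 1 and 0 in ACADSB-/- libraries, against 20, 19 and 11 in WT libraries. RPP25 (−1.10) was lower and CYP1A1 (1.04) higher, and the other 15 neighbours of SEMA7A were under 2-fold or did not pass.

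Around UNC5B, 3 of 7 neighbours were called lower. ADAMTS14, a metalloprotease, had 69, 92 and 111 counts in ACADSB-/- libraries, against 1832, 1540 and 1816 in WT libraries. LOC104976195 had none in ACADSB-/- libraries, against 42, 15 and 13 in WT libraries, and CDH23, a cadherin, was lower (log2 fold change −1.08). Around SEMA4A, itself higher, 4 of 29 neighbours were called, with RAB25 (1.24), RIT1 (1.24) and TSACC (1.30) higher and NES (−1.22) lower. CD34, near PLXNA2, had 18, 12 and 10 counts in ACADSB-/- libraries, against 1, 0 and 2 in WT libraries, and the only call near SEMA6C among 31 neighbours was MLLT11 (−1.47). ROBO1, like EPHA7, had no tested neighbour within the window.

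**Figure D5:**
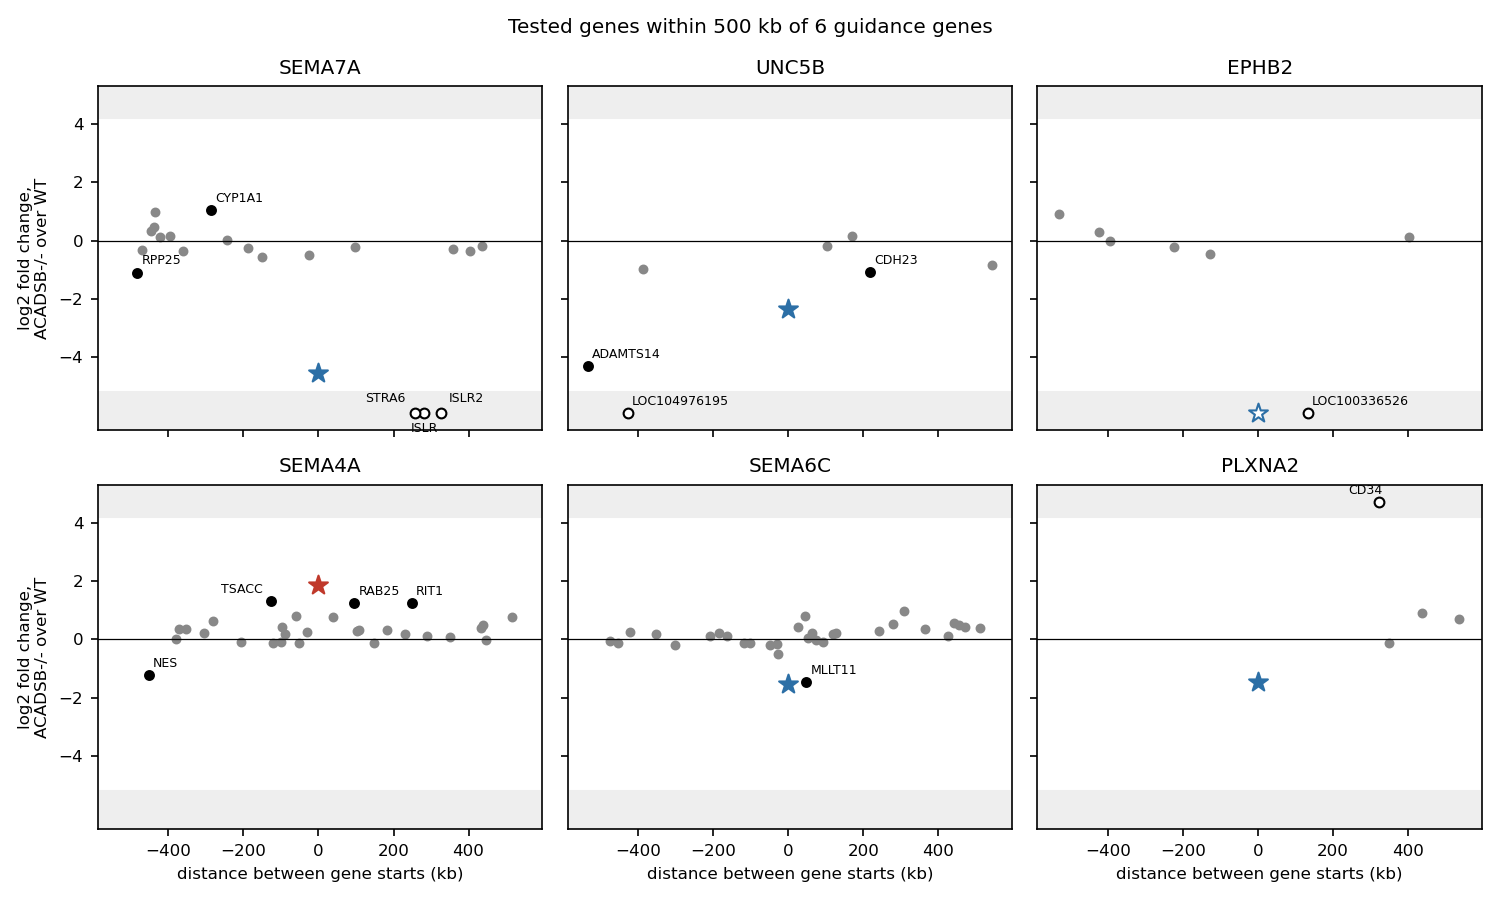
Log2 fold change of ACADSB-/- over WT for tested genes within 500 kb of 6 called guidance genes (stars), against the distance between gene starts in kb, with called neighbours in black and others in grey. Open symbols in the grey bands have at most 3 counts over the libraries of ACADSB-/- (lower band) or WT (upper band) and no height of their own, as for STRA6 near SEMA7A and for EPHB2 with LOC100336526.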

How the data were processed

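The authors deposited raw read counts per gene for 3 ACADSB-/- and 3 WT libraries, and FPKM values, which scale reads by gene length and library total. No aligner, counter, genome build, annotation or strand setting is named in the sources used here. Bismark 0.12.5 stands in the submitters' processing notes, without a stated role. The log2 fold, linear fold (ratio), p-value and FDR columns deposited by the authors hold their own comparison and were not used, and 3 value columns of another cell line were left out. The deposited count table names 15693 genes, of which filterByExpr (minimum count 10, minimum total 15) kept 13720.

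Counts were fitted with the quasi-likelihood test of edgeR 4.0.16 (limma 3.58.1, R 4.3.3; TMM factors 0.978 to 1.02; robust; group only), a common dispersion giving a biological coefficient of variation of 6.64%. The paper names EB-Seq, which was not used here. P-values were adjusted by Benjamini-Hochberg over all tested genes, with calls at an adjusted p under 0.05 and, where 2-fold is said, a log2 fold change of 1 or more in size. The SE is the absolute log2 fold change over the square root of F. CPM used TMM-scaled totals. A group with 1 to 3 counts in all has a ratio with an exact 95% interval, for counting error only, and a group with none is given by its counts. Steps were tested on simulated counts.

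The guidance genes were chosen by symbol, and all 46 symbols are in the RefSeq gene table for cattle. Named with counts were genes past 2-fold and those under the filter, and with values the most abundant of each family, up to 3 others a family, and known partners. The genes and lists were chosen with earlier results of these data known. Alternatives were DESeq2 1.42.0, limma-voom, limma on log2 FPKM (pseudocount 1 or 0.1), other scalings and filters, no robust estimation, a test against 1.2-fold, a replicate block and each library left out.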

Additional observations from a re-analysis of the deposited data

How the results depend on the processing

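The 42 tested guidance genes were refitted under 18 alternatives each where they could be fitted, 753 fits in all. In 729 the direction and the side of the threshold stayed, in 14 the adjusted p no longer passed, in 10 it newly passed, and in none did the direction turn. The 14 were fits of PLXNB1, SEMA4F, EFNA1, EFNA5, EPHA1, EPHA4 and NTN1. The 11 guidance genes past 2-fold were called by DESeq2, limma-voom, RLE and upper-quartile scaling, limma on log2(FPKM + 0.1) and with the replicate block, which called 11 guidance genes, all of them shared. Same-numbered libraries did not deviate together (correlations −0.0402 to −0.0236), and none correlated best with its own number. DESeq2 and a fit with no filter added SEMA3G, SEMA6D and SLIT2.

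On log2(FPKM + 1), 540 genes were called over the whole table (295 higher and 245 lower) and 5 guidance genes lower, and with no filter on that scale 544 (298 and 246) and 5. With a mean of at least 50 counts, 855 genes were called, 366 of them lower, and EPHA7 and SEMA6C were not tested. A test against 1.2-fold left 19 pathway partners lower in place of 31.

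Leaving out each library in turn gave 1371 to 1487 called genes (693 to 792 higher, 670 to 726 lower), 2 to 3 guidance genes higher and 9 to 11 lower past 2-fold, 10 to 12 higher and 20 to 25 lower at the adjusted p alone, 24 to 26 partners higher and 27 to 35 lower, and an ACADSB log2 fold change of −1.99 to −1.42. Counts under 10 in every ACADSB-/- library limit EPHB2, EPHA7, ROBO1, SEMA3G, SEMA6D, SLIT2 and PLXNC1.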
